A study of Mus musculus with 15 samples.

Results

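The CXC chemokines Cxcl1, Cxcl2, Cxcl3, Cxcl10 and Cxcl16 and the receptor Cxcr4 were followed across 5 treatment groups of a mouse dendritic cell line. The 6 genes were taken as every probe set that the platform annotation assigned to that symbol and to no other gene, which gave 9 of the 45037 probe sets other than array controls. After a filter on dim probe sets, all 6 genes were among the 12701 genes tested, each read by its brightest probe set. The series asked how a chemical allergen and hydrogen peroxide change gene expression in these cells, with and without an inhibitor of reactive oxygen species. Total RNA of 15 samples, 3 arrays a group, was hybridised to Affymetrix arrays. All arrays carried RNA of a cell line made from the epidermis of newborn mice of the A/J background, which the labels call a dendritic cell. The groups were non-treated cells, cells given DNFB (the usual abbreviation of the contact allergen dinitrofluorobenzene), cells given H2O2, cells given DPI (the usual abbreviation of the flavoprotein inhibitor diphenyleneiodonium), and cells given DPI + DNFB. The control arrays are labelled non-treated while the design text speaks of vehicle, and doses and times are not given in the sources used here. A cell line cultured alone holds none of the keratinocytes, T cells or neutrophils that chemokines act between in skin, and the labels do not state whether replicate arrays stand for independent cultures. Each p-value below thus sets a difference against the array-to-array spread within groups, part or all of which could be technical. The fit leaves out any pairing of arrays by replicate number.

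CXC chemokines are small secreted proteins that attract leukocytes through receptors coupled to G proteins. Cxcl1, Cxcl2 and Cxcl3 are close relatives that draw neutrophils through Cxcr2, Cxcl10 is the interferon-inducible ligand of Cxcr3 on effector T cells, and Cxcl16 is made as a membrane protein that can be shed as the ligand of Cxcr6. Cxcr4, the receptor of Cxcl12, guides cell homing and takes part in the exit of Langerhans cells, the dendritic cells of the epidermis, from skin. The genes of the neutrophil-attracting ligands are classic targets of NF-kB, and that of Cxcl10 is a target of both NF-kB and interferon-activated factors.

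The deposited arrays had been scaled to unequal targets, a trimmed mean of 250 on 6 arrays and of 500 on 9, and every array was therefore rescaled to 500; all signals below are on that scale. Correlations of replicate arrays across genes ran from 0.946 to 0.973. The beta-actin 3'/5' ratio, a measure of RNA integrity, was 1.95 ± 0.405 (SD, n = 3) in DPI + DNFB cells and 1.25 ± 0.00263 in non-treated cells, and the highest value on any array outside DPI + DNFB was 1.53. All 11 markers of dendritic and Langerhans cells passed the filter, among them H2-Aa and Cd74 of class II presentation. By limma, 1 rose and 1 fell with DNFB, 2 fell with H2O2, 3 fell with DPI, and 2 rose and 4 fell with DPI + DNFB. Over all genes 24.4%, 28.3%, 31.8% and 33.8% were called in these comparisons. The Langerhans cell lectin Cd207 had a signal of 124.3 in non-treated cells, 988.4 with DNFB and 31.94 with DPI. Ciita was 2.03-fold lower with DNFB (adjusted p = 0.000517) and 3.51-fold lower with DPI, and Spi1 2.50-fold lower with DPI. All 7 macrophage markers passed too, and their summed signal was 23640 to 32300 in non-treated cells, 12070 to 14870 with DNFB, 11800 to 18400 with H2O2, 15840 to 22120 with DPI and 21670 to 30650 with DPI + DNFB. That sum was lower in the DNFB, H2O2 and DPI groups, where 4 chemokines were higher, and its part in the chemokine results was not tested. Csf1r, the receptor of a macrophage growth factor, was its largest term, with group signals of 16150 in non-treated cells, 6749 with DNFB, 5936 with H2O2 and 8680 with DPI. Of the 7 markers, 1 rose and 3 fell with DNFB (24.4% of all genes called), and 1 rose and 2 fell with H2O2 (28.3%). With DPI 1 rose and 1 fell (31.8%), and with DPI + DNFB 1 fell (33.8%). Cd68 was the one that rose with DNFB and with DPI. Of the defining markers of neutrophils, keratinocytes and T cells, 3 of 5, 2 of 7 and 1 of 4 on the array passed the filter. Among these, by limma, Krt5 rose 3.31-fold with DNFB (adjusted p = 0.0081) and Mpo 3.43-fold with H2O2 (adjusted p = 0.000849). Krt5 and Trp63 rose with DPI + DNFB, and Cd2 fell with H2O2, DPI and DPI + DNFB. For fibroblasts, mast cells and endothelial cells, 1 of 6, 2 of 5 and 1 of 4 passed the filter. Of these, by limma, Kit fell with H2O2, DPI and DPI + DNFB (3.89-fold lower with DPI + DNFB, adjusted p = 2.57e-07). Kdr was 2.27-fold lower with DNFB (adjusted p = 0.00733), and Tpsb2 and Col1a2 were not called against non-treated cells. The part of these markers in the chemokine results was not tested.

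The promoters of the chemokines are shown because the members of the neutrophil-attracting group carry the same stretch close to the transcription start although their signals parted under treatment. Promoter sequences from RefSeq (build GRCm38.p6, a C57BL/6J reference, not the A/J sequence) were found for 5 of the 6 genes, all but Cxcl16, and the 250 bases before the start were searched on both strands. The lines below end at the base before the start, and the capitals mark the 11-base run that the 3 promoters share.
Cxcl1, chr5:90891125-90891244, strand plus: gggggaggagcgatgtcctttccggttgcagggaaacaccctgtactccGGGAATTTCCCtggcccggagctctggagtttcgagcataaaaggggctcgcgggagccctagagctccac
Cxcl2, chr5:90903779-90903898, strand plus: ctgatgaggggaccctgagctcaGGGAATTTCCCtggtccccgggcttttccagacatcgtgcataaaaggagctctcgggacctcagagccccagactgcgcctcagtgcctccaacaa
Cxcl3, chr5:90785981-90786100, strand plus: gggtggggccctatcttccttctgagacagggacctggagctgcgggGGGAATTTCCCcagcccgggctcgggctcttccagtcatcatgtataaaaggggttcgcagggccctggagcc
This run, GGGAATTTCCC, occurred in 14 of 32851 promoters (0.0426%) and holds a match to the 10-base NF-kB motif on each strand, the matches overlapping each other. The Cxcl10 promoter, printed next, held other letters. Its capitals mark a match to the interferon-stimulated response element (GAAA, any 2 bases, GAAA) at the far end and then 2 matches to the NF-kB motif.
Cxcl10, chr5:92348890-92349109, strand minus: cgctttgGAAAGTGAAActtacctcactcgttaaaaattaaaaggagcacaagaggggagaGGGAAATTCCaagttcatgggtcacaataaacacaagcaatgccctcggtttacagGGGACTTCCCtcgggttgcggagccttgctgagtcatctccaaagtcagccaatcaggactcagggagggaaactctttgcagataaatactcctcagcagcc
An NF-kB match was present in 3.90% of all promoters and the interferon element in 2.98%. The Cxcl10 window also held 1 match to the AP-1 motif TGANTCA (6.75% of all promoters), which overlapped 1 match to the antioxidant response element TGACNNNGC (10.2%). The Cxcr4 window held matches to TATAAA alone (12.4% of all promoters), on both strands at overlapping bases, and the Cxcl3 window held 1. A match is a stretch of letters and does not show binding.

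Against non-treated cells, DNFB and H2O2 each raised Cxcl2, Cxcl3, Cxcl10 and Cxcl16 and left Cxcl1 and Cxcr4 short of the threshold, an adjusted p under 0.05. DPI alone raised 5 members, the same 4 ligands and Cxcr4. With DPI + DNFB the 4 called members were Cxcl2, Cxcl10, Cxcl16 and Cxcr4, all higher, and Cxcl3 was not called. Set against these counts, 24.4% of all genes tested were called with DNFB (10.5% higher), 28.3% with H2O2 (10.9% higher), 31.8% with DPI (13.3% higher) and 33.8% with DPI + DNFB. Arrays of treated and non-treated cells did not overlap for 4 members with DNFB (41.5% of all genes), 4 with H2O2 (42.8%), 6 with DPI (46.2%) and 5 with DPI + DNFB (44.4%). The share of rises among all calls depended on scaling: centring arrays on their median moved it from 38.4% to 53.4% with H2O2 and from 42.0% to 60.6% with DPI, and leaving the arrays as deposited moved it from 43.1% to 32.4% with DNFB and to 58.0% with H2O2. The 4 comparisons share the 3 non-treated arrays and are therefore not independent of each other. The lower deposited target held 6 arrays, 2 of DNFB and 1 of each other group, and the higher target 9 arrays, 1 of DNFB and 2 of each other group. The 17 differences of members called against non-treated cells had the same sign within each set. That was fixed in advance and is no separate evidence, because treated and non-treated arrays did not overlap for any of the 17. A fit within either set assumes that a lone array varies like the other groups, and most such comparisons in the lower-target set are of 1 array with 1, so the values within a set are given for their size.

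**Figure D1:**
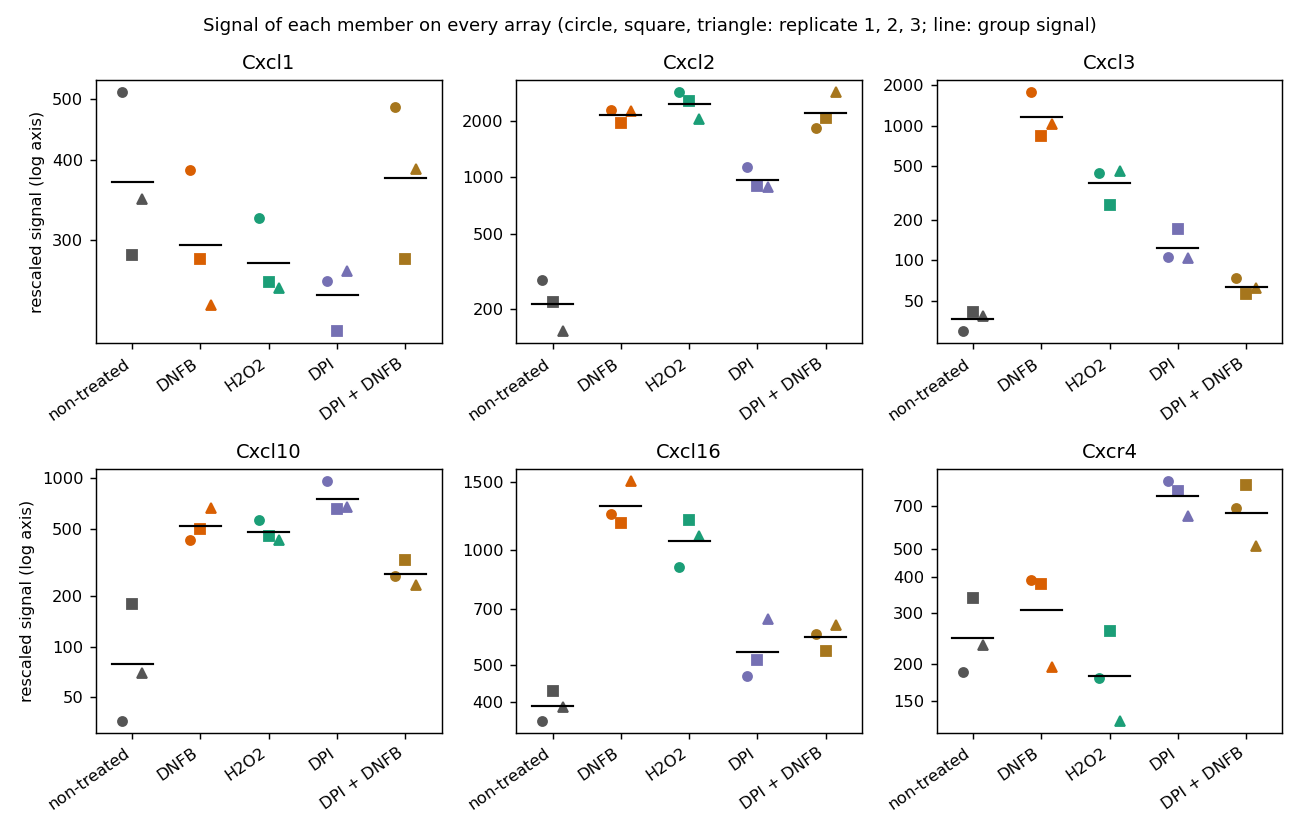
Rescaled signal (log axis) of each member on each of the 15 arrays, by treatment group; circles, squares and triangles are replicates 1, 2 and 3 and the line is the group signal, the back-transformed mean of log2(signal + 15). Cxcl2 is high in every treated group, Cxcl3 is high with DNFB and H2O2 and near the non-treated arrays with DPI + DNFB, and Cxcr4 is high on the arrays that received DPI.

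Cxcl2 had signals of 287.0, 219.7 and 152.6 on the 3 non-treated arrays. With DNFB they were 2284, 1934 and 2237, with H2O2 2846, 2535 and 2044, with DPI 1134, 898.7 and 887.9, and with DPI + DNFB 1822, 2053 and 2822. Every treated array lay above every non-treated array, and the DPI arrays lay between the non-treated arrays and those of the other treatments. Relative to non-treated cells Cxcl2 was 9.47-fold higher with DNFB (log2 difference 3.24, SE 0.194, adjusted p = 3.97e-10), 10.8-fold with H2O2 (adjusted p = 2.35e-10), 4.31-fold with DPI (adjusted p = 1.24e-07) and 9.68-fold with DPI + DNFB (adjusted p = 4e-10). These folds, like all those below, are on the log2(signal + 15) scale, which understates the change of dim genes. In the order of levels, DPI stood above non-treated cells and DNFB above DPI (2.20-fold, adjusted p = 0.000101), while DNFB, DPI + DNFB and H2O2 did not differ beyond their spread. Cxcl2 ranked 18 from the highest rise of 12701 genes with DNFB and 10 with H2O2.

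Cxcl3 was dim in non-treated cells, with signals of 29.53, 41.35 and 38.57. The DNFB arrays read 1795, 833.6 and 1032, the H2O2 arrays 443.1, 259.6 and 462.1, the DPI arrays 106.1, 171.2 and 103.2, and the DPI + DNFB arrays 73.50, 55.69 and 61.68. No pair of groups overlapped: all DNFB arrays were above all H2O2 arrays, these above all DPI arrays, these above all DPI + DNFB arrays, and these above the non-treated arrays. The rise was 22.9-fold with DNFB (log2 4.52, SE 0.312, adjusted p = 2.38e-09), which ranked 4 among the 12701 genes, 7.64-fold with H2O2 (adjusted p = 7.68e-07) and 2.71-fold with DPI (adjusted p = 0.00144). With DPI + DNFB the difference from non-treated cells was 0.61 on the log2 scale with a 95% interval from -0.04 to 1.26 (adjusted p = 0.14). Among neighbours in the order of levels, DNFB differed from H2O2 and H2O2 from DPI (adjusted p = 0.000873), whereas DPI did not differ from DPI + DNFB at the threshold (adjusted p = 0.0555).

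Cxcl10 varied most among the non-treated arrays, at 36.41, 178.4 and 69.36. It read 426.8, 495.5 and 660.4 with DNFB, 565.2, 453.5 and 427.2 with H2O2, 954.9, 652.4 and 673.0 with DPI, and 260.7, 326.0 and 231.5 with DPI + DNFB. All treated arrays exceeded the highest non-treated array, the DPI + DNFB arrays were the lowest of the treated ones, and the DNFB, H2O2 and DPI arrays overlapped in part. The rise over non-treated cells was 5.66-fold with DNFB (adjusted p = 1.03e-05), 5.23-fold with H2O2 (adjusted p = 1.67e-05), 8.10-fold with DPI (log2 3.02, SE 0.330, adjusted p = 9.7e-07) and 3.02-fold with DPI + DNFB (adjusted p = 0.000897). DPI alone thus had the highest group signal of Cxcl10, 748.7, but its step above DNFB did not pass the test (1.43-fold, adjusted p = 0.24). The DPI rise was 4.24 on the log2 scale between the 1 DPI array and the 1 non-treated array of the lower deposited target, and 2.41 between the 2 and 2 of the higher target.

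Cxcl16 had signals of 358.1, 428.0 and 388.0 in non-treated cells. DNFB gave 1238, 1178 and 1511, H2O2 900.6, 1198 and 1088, DPI 467.6, 516.7 and 660.5, and DPI + DNFB 603.4, 543.0 and 635.6. The DNFB and H2O2 arrays overlapped each other and lay above all others, and the DPI and DPI + DNFB arrays overlapped each other just above the non-treated ones. Cxcl16 was 3.25-fold higher with DNFB (log2 1.70, SE 0.159, adjusted p = 1.72e-07) and 2.64-fold higher with H2O2 (adjusted p = 1.71e-06). The smaller differences were 1.38-fold with DPI (adjusted p = 0.0325) and 1.50-fold with DPI + DNFB (adjusted p = 0.00755).

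The gene has a further probe set, 1449195_s_at, which was also kept. Over all probe sets, it gave rises of 1.81 on the log2 scale with DNFB (adjusted p = 0.000146) and 1.57 with H2O2 (adjusted p = 0.00053), but differences of -0.04 with DPI (adjusted p = 0.943) and 0.31 with DPI + DNFB (adjusted p = 0.457). The small DPI rise of Cxcl16 was therefore called by 1 of its 2 probe sets. It also lost its call without non-treated replicate 1, non-treated replicate 3 or DPI replicate 3 (adjusted p = 0.108, 0.0755 and 0.181).

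**Figure D2:**
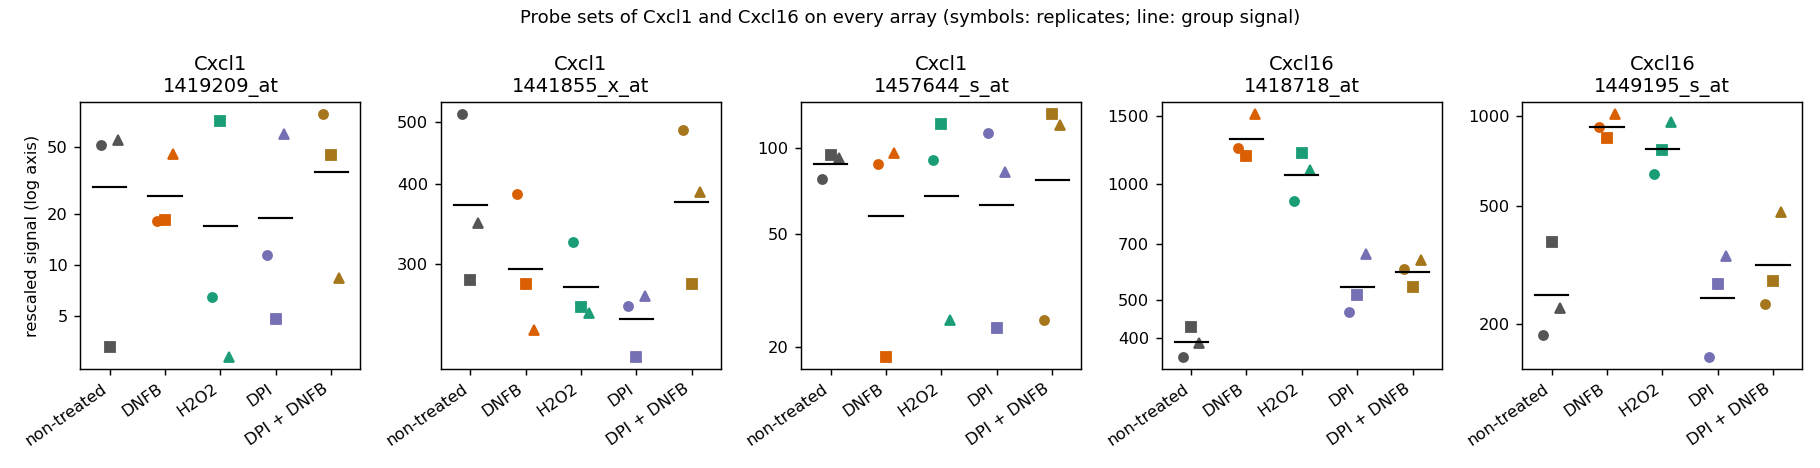
Rescaled signal (log axis) on each array for the 3 probe sets of Cxcl1 and the 2 of Cxcl16, by treatment group; symbols are replicates and lines group signals. The Cxcl16 probe sets are both high with DNFB and H2O2, and the dim Cxcl1 probe sets scatter within every group, 1419209_at between 2.88 and 77.3.

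Read by its brightest probe set, Cxcl1 did not follow its relatives. This probe set, 1441855_x_at, read 513.4, 283.5 and 347.1 in non-treated cells, 385.9, 279.5 and 236.5 with DNFB, and 324.6, 256.9 and 251.7 with H2O2. DPI gave 257.9, 214.9 and 267.4, and DPI + DNFB 486.2, 279.2 and 388.0. The groups overlapped, except that the DPI arrays lay below all non-treated and all DPI + DNFB arrays. No difference from non-treated cells passed the test: the log2 values were -0.31 with DNFB (95% interval -0.83 to 0.21, adjusted p = 0.42), -0.40 with H2O2 (adjusted p = 0.252), -0.56 with DPI (adjusted p = 0.0948) and 0.02 with DPI + DNFB (adjusted p = 0.963). The DPI value passed without non-treated replicate 2 (-0.75, adjusted p = 0.0492). It also passed in a limma fit with the replicate number as a block (-0.56, adjusted p = 0.0334). A dimmer kept probe set, 1457644_s_at, ranged from 18.6 to 131.7 and gave no call in any comparison, and 1419209_at did not pass the filter. The mean levels of the 3 probe sets stood at percentiles 70.2, 43.8 and 19.8 of all probe sets. The Cxcl1 result thus rests on 1441855_x_at, and whether its signal comes from Cxcl1 alone was not tested. No neighbours in the order of Cxcl1 levels differed beyond their spread.

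Cxcr4, the only receptor among the members, was high where DPI was present. Signals were 188.1, 337.7 and 233.9 in non-treated cells, 390.6, 376.9 and 196.0 with DNFB, and 180.2, 259.6 and 128.0 with H2O2. They were 853.1, 788.7 and 646.5 with DPI and 687.8, 826.5 and 512.0 with DPI + DNFB. Every array with DPI exceeded every array without it, and the groups on each side of that divide overlapped. The rise over non-treated cells was 2.96-fold with DPI (log2 1.56, SE 0.282, adjusted p = 0.000256) and 2.60-fold with DPI + DNFB (adjusted p = 0.000827). DNFB and H2O2 gave log2 differences of 0.30 (adjusted p = 0.503) and -0.41 (adjusted p = 0.319), with 95% intervals of -0.28 to 0.89 and -0.99 to 0.18.

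**Figure D3:**
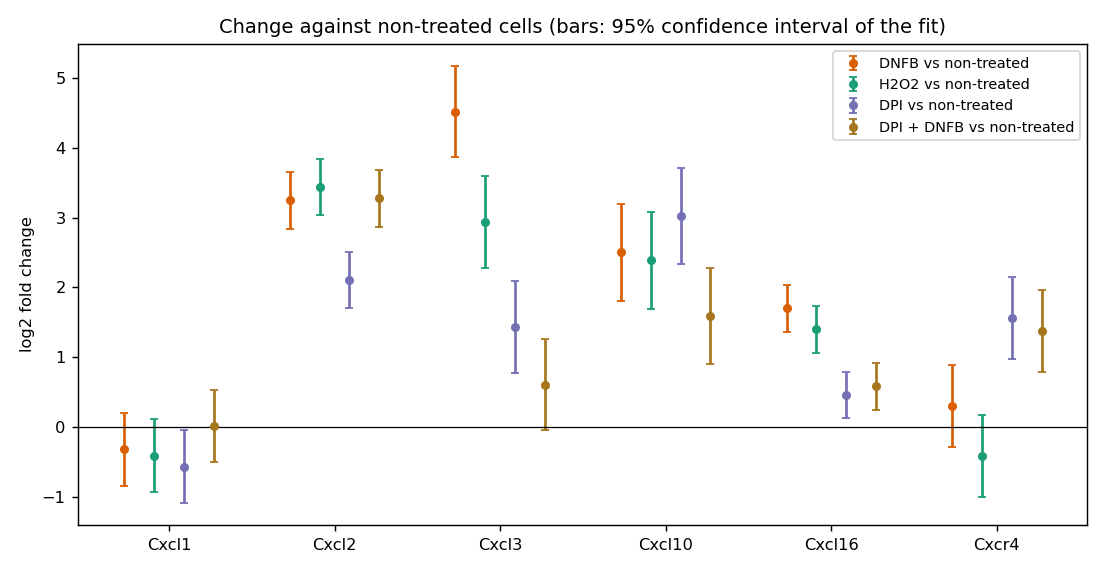
Log2 fold change of each member against non-treated cells for the 4 treatments, with the 95% confidence interval of the fit as bars. The DNFB and H2O2 values lie together for Cxcl2, Cxcl10 and Cxcl16 and apart for Cxcl3, at 4.52 and 2.93.

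Direct comparison of the allergen with the oxidant set only Cxcl3 apart. Cxcl3 was 2.99-fold higher with DNFB than with H2O2 (log2 1.58, SE 0.312, adjusted p = 0.0018), and the other 5 members were not called, where 14.7% of all genes were. Its arrays were also the only ones among the members that did not overlap between these groups, beside 33.0% of all genes. The log2 differences were -0.19 for Cxcl2 (95% interval -0.60 to 0.21), 0.11 for Cxcl10 (-0.57 to 0.80), 0.30 for Cxcl16 (-0.03 to 0.63) and 0.71 for Cxcr4 (0.12 to 1.30, adjusted p = 0.1). In the 9 arrays of the higher deposited target, which hold 1 DNFB array and 2 H2O2 arrays, the Cxcl3 difference was 1.23 (adjusted p = 0.205). Without DNFB replicate 3 or H2O2 replicate 2, Cxcr4 was called as well, at 1.02 (adjusted p = 0.0245) and 0.95 (adjusted p = 0.0491). In a limma fit with the replicate number as a block, Cxcr4 was also called, at 0.71 (adjusted p = 0.0239).

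Cells given DNFB were next compared with and without DPI, and the estimated differences varied in size across members. DPI + DNFB cells differed from DNFB cells in 4 of the 6 members, where 44.2% of all genes were called, and 3 of the 4 were lower (21.3% of all genes). The arrays of these groups did not overlap for the same 4 members, beside 52.3% of all genes. Cxcl3 was lower with DPI + DNFB than with DNFB (log2 difference -3.90, SE 0.312, adjusted p = 1.02e-08), the value ranked 10 from the lowest of 12701. Cxcl16 was 2.17-fold lower (adjusted p = 1.12e-05), and its other probe set gave a log2 difference of -1.50 (adjusted p = 0.000373). Cxcr4 was 2.10-fold higher (adjusted p = 0.00408). Cxcl2 showed no such drop: its log2 difference was 0.03 with a 95% interval of -0.37 to 0.44, beside -4.56 to -3.25 for Cxcl3, and the difference between these genes was not tested.

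Cxcl10 was 1.87-fold lower with DPI + DNFB than with DNFB (log2 -0.91, adjusted p = 0.0314). This call was lost without DNFB replicate 2 (adjusted p = 0.0597), DNFB replicate 3 (0.129), DPI + DNFB replicate 1 (0.0707) or DPI + DNFB replicate 3 (0.0985), and in 9 of 31 alternative fits in all. Its adjusted p over those fits ran from 0.00427 to 0.519. In the arrays of the higher deposited target, which hold 1 DNFB array, the Cxcl10 difference was -0.82 (adjusted p = 0.176) and that of Cxcr4 0.77 (adjusted p = 0.193). Cxcl3 stood there at -3.53 and Cxcl16 at -0.99, and these values too rest on the lone DNFB array.

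Set against DPI alone, DNFB given with DPI raised Cxcl2 2.25-fold (log2 1.17, SE 0.194, adjusted p = 0.000208) and lowered Cxcl10 2.68-fold (log2 -1.42, SE 0.330, adjusted p = 0.00324). The count of 2 members compares with 27.8% of all genes called, and the arrays of 4 members did not overlap, beside 38.6% of all genes. Cxcl3 gave -0.82 (adjusted p = 0.0555), Cxcl1 0.58 (adjusted p = 0.089), Cxcl16 0.12 and Cxcr4 -0.19. The Cxcl3 value passed without H2O2 replicate 2 (adjusted p = 0.0466), and that of Cxcl1 without DPI + DNFB replicate 2 (adjusted p = 0.0295). With the replicate number as a block, the Cxcl1 value passed too. The beta-actin ratio was highest in the DPI + DNFB group. With its logarithm as a covariate, calls over all genes fell from 3530 to 541 of 12701 against DPI and from 4291 to 930 against non-treated cells. None of the 6 members was called against DPI in that fit (limma, 1 at an unadjusted p under 0.05; Cxcl2 1.10 with adjusted p = 0.0641, Cxcl10 -1.02 with adjusted p = 0.335), and against non-treated cells only Cxcl2 (3.20, adjusted p = 1.92e-05) and Cxcl10 (2.03, adjusted p = 0.0378) were. Cxcr4 stood there at 1.62 (adjusted p = 0.0536), beside 1.38 without the covariate, and Cxcl16 at 0.50 (adjusted p = 0.312), beside 0.58. In the same fit Cxcl3 still stood 3.78 below DNFB on the log2 scale (adjusted p = 2.83e-05).

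The difference between the DNFB effect with DPI and that without it was tested as the interaction. It was below 0 and called for Cxcl3 (log2 -5.34, SE 0.442, adjusted p = 4.5e-08), Cxcl10 (-3.92, SE 0.466, adjusted p = 3.62e-06), Cxcl2 (-2.07, SE 0.274, adjusted p = 1.15e-05) and Cxcl16 (-1.58, SE 0.225, adjusted p = 2.65e-05). These 4 of 6 members compare with 31.1% of all genes called in either direction and 13.8% called below 0. The share of values above 0 among all interaction calls was 55.6%, and 38.4% when arrays were centred on their median. Only 1 gene of the 12701 had a lower interaction than Cxcl3, and Cxcl10 ranked 15. Cxcr4 was not called (-0.49, 95% interval -1.32 to 0.34, adjusted p = 0.384). Cxcl1 went the other way at 0.90 (adjusted p = 0.0595), a value that passed without non-treated replicate 2 (adjusted p = 0.0317), DNFB replicate 1 (0.0312) or DPI + DNFB replicate 2 (0.0209). The Cxcl1 value also passed with the replicate number as a block. The interaction was also computed within the lower-target and the higher-target arrays. In the lower-target set non-treated, DPI and DPI + DNFB have 1 array each, and in the higher-target set DNFB has 1. The values, in that order, were -5.40 and -4.96 for Cxcl3, -5.22 and -3.22 for Cxcl10, -2.24 and -1.88 for Cxcl2, and -1.53 and -1.49 for Cxcl16. Their sign was fixed in advance and is no separate evidence, because any choice of arrays from the groups gives values below 0 for these 4 genes. They are given for their size.

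**Figure D4:**
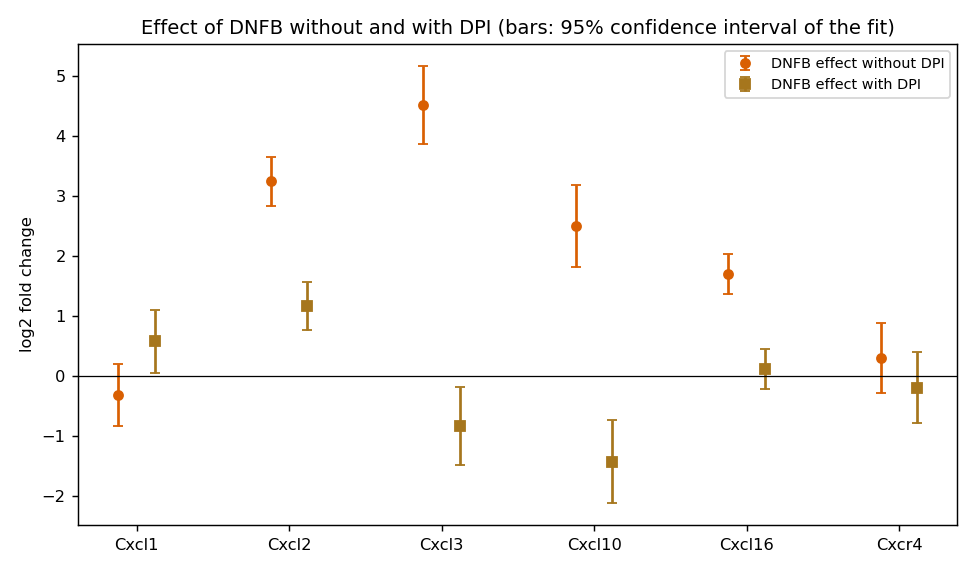
Log2 fold change of each member for DNFB against non-treated cells (circles) and for DPI + DNFB against DPI (squares), with the 95% confidence interval of the fit as bars. Cxcl2 keeps a smaller rise of 1.17 with DPI, Cxcl16 stands near 0, and Cxcl3 and Cxcl10 lie below 0 at -0.82 and -1.42.

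Across the 10 pairs of groups, 35 of 60 differences of members passed the test, where the share of all genes called ran from 14.7% to 44.2% a pair. The pairs not yet described put H2O2 above DPI for Cxcl2 (2.51-fold, adjusted p = 2.3e-05), Cxcl3 and Cxcl16 (1.92-fold, adjusted p = 0.000116) and below it for Cxcr4 (3.92-fold lower, adjusted p = 1.83e-05), where 33.8% of all genes were called. DNFB stood above DPI for Cxcl3 (8.45-fold, adjusted p = 2.64e-07) and Cxcl16 (2.36-fold), and below it for Cxcr4 (2.40-fold lower, adjusted p = 0.00134), so that with Cxcl2 4 members were called beside 37.5% of all genes. DPI + DNFB stood below H2O2 for Cxcl3 (log2 -2.32, adjusted p = 7.75e-06) and Cxcl16 (1.76-fold) and above it for Cxcr4 (3.44-fold, adjusted p = 4.57e-05), beside 41.0% of all genes. For Cxcl10, H2O2 and DPI arrays did not overlap, yet the difference was not called (adjusted p = 0.157), and arrays of 45.6% of all genes did not overlap between these groups.

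The other CXC ligands were mostly too dim to test: 4 of 10 on the array were kept. Among these, Pf4, a platelet and macrophage chemokine, had a group signal of 4694 in non-treated cells and rose 1.41-fold with DPI (adjusted p = 0.00107) and 1.67-fold with DPI + DNFB (adjusted p = 2.13e-05). Ppbp, another platelet chemokine that acts at Cxcr2, rose 1.42-fold with DNFB (adjusted p = 0.0403) and fell with DPI + DNFB (1.68-fold lower, adjusted p = 0.00252). Cxcl17, a mucosal chemokine, was 2.18-fold lower with DNFB (adjusted p = 0.0385). None of the 4 was called with H2O2 by limma (1 at an unadjusted p under 0.05), where 28.3% of all genes were called. Cxcl9, Cxcl11 and Cxcl12 were not among those kept. The median log2 difference of the kept ligands was -0.06 with DNFB and 0.19 with DPI, beside -0.06 and -0.01 over all genes.

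Of the other CXC and atypical receptors, 7 of 9 were kept, and Ackr3 alone was called in comparisons with non-treated cells. Ackr3 is the atypical receptor that shares Cxcl12 with Cxcr4. Its group signal was 295.2 in non-treated cells, 137.1 with H2O2 (2.04-fold lower, adjusted p = 0.0442) and 650.5 with DPI (2.15-fold higher, adjusted p = 0.0285). With DPI + DNFB and with DNFB no gene of the list was called by limma, and 0 reached an unadjusted p under 0.05. Over all genes, 33.8% were called with DPI + DNFB, 24.4% with DNFB, 28.3% with H2O2 and 31.8% with DPI. Cxcr2, Cxcr3 and Cxcr6, the receptors of the ligands above, stood with DNFB at log2 differences of 0.27, -0.02 and 0.03.

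Genes that process or present chemokines moved in both directions. With DNFB 4 of 11 kept genes rose and 1 fell, where 24.4% of all genes were called and 10.5% were higher. The rises included Mmp12, a macrophage elastase that can cut CXC chemokines (26.4-fold, adjusted p = 3.9e-13), Sdc4, a heparan sulfate proteoglycan (2.97-fold), and Adam17, a sheddase of membrane proteins such as Cxcl16 (1.66-fold, adjusted p = 0.00255), and Mmp9 was 1.64-fold lower. With H2O2 3 rose and 2 fell, with Mmp12 at 5.93-fold, Sdc4 at 2.55-fold and Adam17 at 1.78-fold, beside 28.3% of all genes called and 10.9% higher. The genes that fell with H2O2 were Mmp9 (1.91-fold lower, adjusted p = 0.00153) and Adam10, another sheddase of Cxcl16 (1.64-fold lower, adjusted p = 0.00105), the latter named after its value was seen. Mmp12 was 24.7-fold lower with DPI + DNFB than with DNFB (adjusted p = 3.88e-13) and Sdc4 3.19-fold lower (adjusted p = 1.65e-07). The list's median was -0.01 with DNFB and 0.27 with H2O2, beside -0.06 over all genes in each.

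Genes of receptor signalling and its brakes also moved in both directions. With DNFB 3 of 19 rose and 8 fell (24.4% of all genes called, 10.5% higher), and with H2O2 5 rose and 8 fell (28.3% called, 10.9% higher). Rgs16 and Rgs1, which shut off G protein signals, rose 8.35-fold and 2.69-fold with DNFB (adjusted p = 9.97e-05 and 8.45e-07) and 5.85-fold and 2.63-fold with H2O2. The receptor kinase Grk6 and the arrestin Arrb1, which desensitise chemokine receptors, were 2.30-fold and 2.03-fold lower with DNFB and 3.62-fold and 2.48-fold lower with H2O2. With DPI 2 rose and 8 fell, among them Rgs19 (2.73-fold lower, adjusted p = 3.33e-08), and with DPI + DNFB 5 rose and 5 fell, beside 31.8% and 33.8% of all genes called. The medians were -0.34 with DNFB, -0.22 with H2O2, -0.03 with DPI and 0.06 with DPI + DNFB.

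Among the subunits and inhibitors of NF-kB, 13 of 15 genes were kept. With DNFB 11 rose and none fell, and with H2O2 9 rose and none fell (limma; 0 fell at an unadjusted p under 0.05 in either comparison), beside 10.5% and 10.9% of all genes higher, and the medians were 1.16 and 1.57 beside -0.06 over all genes in each. The inhibitor Nfkbie rose 3.65-fold and the subunit gene Nfkb2 2.80-fold with DNFB (adjusted p = 1.43e-05 and 3.36e-06). With H2O2 the feedback inhibitor Tnfaip3 rose 4.55-fold, Relb 4.06-fold and Nfkbia 3.33-fold (adjusted p = 6.47e-09, 2.54e-07 and 8.62e-09). With DPI 4 rose and 2 fell (median -0.10), and with DPI + DNFB 6 rose and 2 fell (median 0.39), beside 31.8% and 33.8% of all genes called. In both groups given DPI, Bcl3 and Nfkbie were the genes that fell, Bcl3 by 1.87 and 1.78 on the log2 scale. The interaction was called below 0 for 5 genes, among them Nfkbie (-2.06), Rela (-1.39) and Relb (-1.36), and above 0 for Nfkbid (1.73). Over all genes, 13.8% were called below 0 and 31.1% in either direction.

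**Figure D5:**
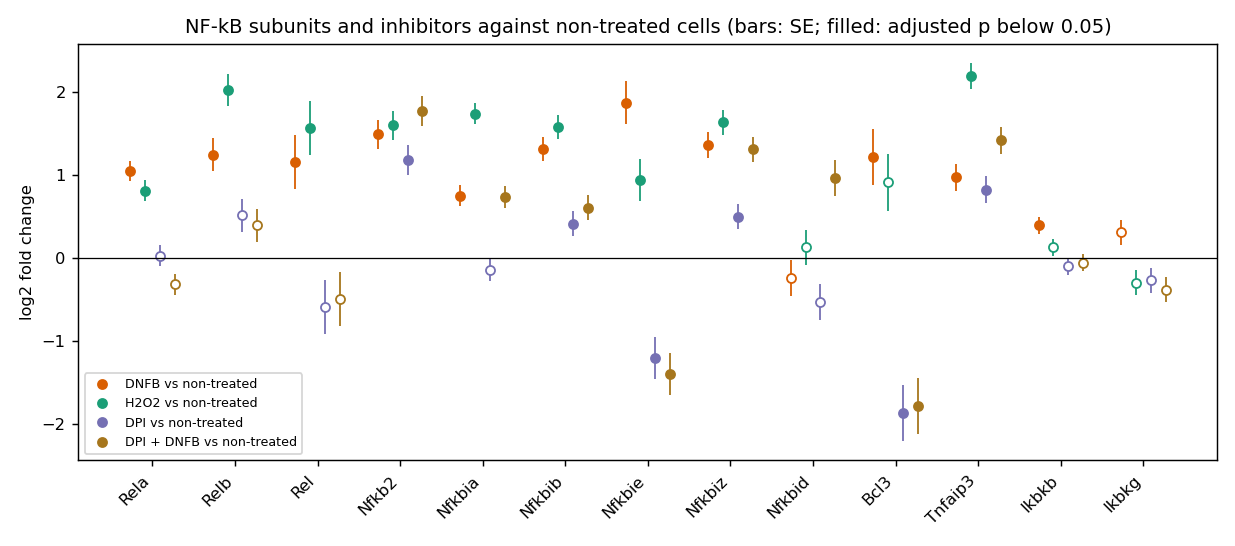
Log2 fold change against non-treated cells of the 13 kept NF-kB subunits and inhibitors for the 4 treatments, with standard errors as bars and filled symbols for an adjusted p under 0.05. DNFB and H2O2 values lie mostly above 0, and Nfkbie and Bcl3 are below 0 with DPI and with DPI + DNFB.

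In the interferon route to Cxcl10, 17 of 18 genes were kept. With DNFB, where 10.5% of all genes were higher, 1 rose, Irf5 (2.07-fold, adjusted p = 4.65e-06), and 1 fell, Irf1 (1.55-fold lower, adjusted p = 0.00103). With H2O2, where 10.9% were higher, 2 rose, Irf8 (2.27-fold, adjusted p = 4.47e-07) and Irf5, and 2 fell, Irf3 and Ifnar2. Both counts of rises are near the shares over all genes. With DPI, where Cxcl10 was highest, none rose (limma, 1 at an unadjusted p under 0.05) and 8 fell. The falls were led by the receptor chain Ifngr2 (3.66-fold lower, adjusted p = 2.1e-06), the kinase Ikbke (2.77-fold lower) and Irf5 (2.70-fold lower, adjusted p = 9.34e-08). Over all genes 31.8% were called with DPI in either direction, 13.3% were higher, and 2341 of 12701 genes were lower. The medians were -0.09, -0.10 and -0.22, beside -0.06, -0.06 and -0.01 over all genes. With DPI + DNFB 2 rose, among them Irf7 (2.52-fold, adjusted p = 0.00756), and 5 fell, beside 33.8% of all genes called.

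Factors that control the decay of chemokine mRNA were represented by 14 of 15 genes. With DNFB 5 rose and 2 fell (24.4% of all genes called, 10.5% higher), and with H2O2 6 rose and 1 fell (28.3% called, 10.9% higher). Zfp36, the RNA-binding protein that destabilises AU-rich messages, rose 1.99-fold with DNFB (adjusted p = 0.0012) and 3.06-fold with H2O2 (adjusted p = 7.35e-06). The related Zfp36l1 rose 2.02-fold and 2.61-fold, and Hnrnpd, another AU-rich element binder, was 1.65-fold lower with DNFB (adjusted p = 1.41e-05). Zc3h12a, an RNase that degrades cytokine messages, rose 2.32-fold with H2O2 (adjusted p = 0.00215) and 2.13-fold with DPI + DNFB (adjusted p = 0.00426). Zfp36l2 was lower with DPI (1.81-fold) and with DPI + DNFB (2.34-fold, adjusted p = 5.09e-06), where the list's counts were 3 up and 2 down, and 4 up and 1 down, beside 31.8% and 33.8% of all genes called. The medians were 0.21, 0.32, 0.02 and 0.13 in the order DNFB, H2O2, DPI and DPI + DNFB.

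Genes of hypoxia and FOXO control, pathways in which Cxcr4 is a known target, were represented by 9 of 10 genes. With DPI 3 rose and none fell (limma; 0 at an unadjusted p under 0.05): the prolyl hydroxylase Egln3 (2.09-fold, adjusted p = 0.000773), Hif1a (1.53-fold, adjusted p = 8.16e-05) and Foxo3 (1.49-fold, adjusted p = 0.000841). This count of 3 in 9 is near the 31.8% of all genes called with DPI (13.3% higher). With DPI + DNFB 4 rose and 2 fell, with Klf2 at 1.84-fold, Egln3 at 1.82-fold, and the glucocorticoid receptor gene Nr3c1 at 1.73-fold lower, beside 33.8% of all genes called. With DNFB, where 10.5% of all genes were higher, 3 rose, led by Foxo1 (2.38-fold, adjusted p = 1.47e-05). With H2O2 none of the 9 was called by limma (3 at an unadjusted p under 0.05), where 28.3% of all genes were called. The medians were 0.33 with DPI and 0.05 with DPI + DNFB.

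The members resembled each other only in part across the 15 arrays, which share treatments, so that the following Pearson correlations of log2 signals are descriptions. The closest pair was Cxcl3 and Cxcl16 (r = 0.909), followed by Cxcl2 and Cxcl16 (0.749), while Cxcl2 and Cxcl3 reached 0.620. Cxcr4 was near or below 0.33 with every other member, and Cxcl1 and Cxcl10 had -0.691. Among all kept and named genes, the patterns most like that of Cxcl2 were those of Cish (0.958), a suppressor of cytokine signalling, Pim1 (0.957), a cytokine-induced kinase, and Zfand2a (0.953). Those most like Cxcl3 were Smad4 (0.967), Mfhas1 (0.960) and Mir22hg (0.953). Smad4 read 4212 in non-treated cells, 9855 with DNFB, 7122 with H2O2, 5103 with DPI and 3982 with DPI + DNFB, the same order as Cxcl3 apart from the lowest pair of groups. Cxcl10 was closest to Rnf19a (0.939), Paip2 (0.915) and Mex3c (0.913), and Cxcl16 to Ammecr1l (0.942), Slc25a33 (0.941) and Ndel1 (0.938). Cxcr4 was closest to Cep57 (0.906), Cdk2ap2 (0.900) and the estrogen receptor gene Esr1 (0.892), which read 240.5 in non-treated cells, 607.4 with DPI and 463.4 with DPI + DNFB. Cxcl1 was closest to Tbkbp1 (0.892), Mink1 (0.880) and Mbd3 (0.831).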

How the data were processed

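RNA of 15 samples was measured on Affymetrix arrays. The deposited values are probe set intensities on a linear scale, made with MAS5 in Affymetrix Expression Console per the submitters' processing notes, which give no versions. The authors' trimmed means (2% from each end) differed, so each array was rescaled to 500. Values were taken as log2(signal + 15), and probe sets with a mean log2 below the 40th percentile (6.22) were left out, which kept 27022. The probe set with the highest mean stood for each gene. Group differences were fitted in limma 3.58.1 (R 4.3.3; lmFit, contrasts, eBayes with trend; all 15 arrays, 10 residual degrees of freedom; two-sided, Benjamini-Hochberg within each comparison over 12701 genes, threshold 0.05), and the code was tested on simulated data. The number of arrays limits the precision. Probe sets were named from the platform annotation, with symbols updated through RefSeq: 34945 had 1 gene symbol, 932 several and 9160 none. Motif searches used Python 3.11.15; protein sequences were not used here.

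The members, gene lists and motifs were chosen with earlier results of these data known, so no list is independent evidence of its own direction. Named genes are the 6 members, up to 4 genes a list and comparison with the largest change among those that passed, and the 3 genes most correlated with each member. The alternatives changed the scaling, pseudocount, filter, probe set rule, variance model, samples, batch and RNA quality terms, or left out each array in turn.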

Additional observations from a re-analysis of the deposited data

Results flagged for a closer look

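The effect of DNFB differed between cells with and without DPI for 4 members, by the interaction test of limma over all genes. The differences, as the log2 effect with DPI minus that without, were -5.34 for Cxcl3, -3.92 for Cxcl10, -2.07 for Cxcl2 and -1.58 for Cxcl16. In cells without DPI all 4 genes rose with DNFB. In cells with DPI, Cxcl2 rose less, Cxcl16 was not called, Cxcl3 was not called and Cxcl10 fell. All 4 were also higher with DPI alone than in non-treated cells, Cxcl10 8.10-fold, Cxcl2 4.31-fold, Cxcl3 2.71-fold and Cxcl16 1.38-fold. The Cxcl16 rise was not seen with its other probe set (log2 -0.04, adjusted p = 0.943 by limma), and its call was lost in 7 of 31 alternative fits. The beta-actin ratio was highest in the DPI + DNFB group; with it as a covariate the 4 values were -5.22, -3.59, -2.13 and -1.64 in the same order, and each was called.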

How the results depend on the processing

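Over 31 alternatives, 1407 of 1488 values of single members kept their direction and their side of the threshold, 38 lost the threshold, 19 gained it and 24 changed sign, all 24 among values called in neither fit. With the arrays as deposited, at unequal targets, the members called fell to 2 for DPI, 1 for DPI + DNFB against non-treated cells, 0 against DPI (2 at an unadjusted p under 0.05), 1 against DNFB, 0 for DNFB against H2O2 (1 unadjusted), 2 for the interaction and 14 of 60 pairs. In that setting the median of all genes lay at -0.365 for DNFB, 0.41 for DPI + DNFB against DNFB, -0.299 for DNFB against H2O2 and 0.446 for the interaction. Calls over all 12701 genes fell too, from 3105 to 210 for DNFB and from 4035 to 214 for DPI. For DPI + DNFB they fell from 4291 to 180 against non-treated cells, from 3530 to 7 against DPI and from 5617 to 829 against DNFB. They fell from 1873 to 26 for DNFB against H2O2 and from 3945 to 137 for the interaction. Arrays of 1 group differ in scale by construction in that setting. In higher-target arrays alone, which hold 1 DNFB array assumed to vary like the other groups, the counts were 2 for DPI + DNFB against DNFB and 0 for DNFB against H2O2 (2 unadjusted). With the beta-actin covariate they were 2 for DPI + DNFB against non-treated cells and 0 against DPI (1 unadjusted), while calls over all genes fell from 4291 to 930 and from 3530 to 541. The cause was not tested.

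Leaving out each array in turn gave 4 members called for DNFB, H2O2 and DPI + DNFB against non-treated cells in every fit. The range was 4 to 6 for DPI, 2 to 3 for DPI + DNFB against DPI, 3 to 4 against DNFB, 1 to 2 for DNFB against H2O2, 4 to 5 for the interaction and 34 to 38 of 60 pairs. As for the replicate block, the labels share replicate numbers across groups but do not say that these pair the samples, so the block was run as an alternative. Deviations from group means had a median correlation of 0.0738 over 30 same-number pairs of arrays, beside -0.0327 over 60 other pairs. Of the same-number pairs 9 were above 0.1, and each of the 15 arrays correlated best with its own number. Replicate 1 of every group was in the lower-target set, as was DNFB replicate 3. The fit used for the results above leaves out any such pairing. With the block the counts were 4, 4, 6 and 4 for DNFB, H2O2, DPI and DPI + DNFB against non-treated cells, 3 and 4 for DPI + DNFB against DPI and DNFB, 2 for DNFB against H2O2, 5 for the interaction and 38 of 60 pairs. The calls gained were Cxcl1 with DPI (-0.56, adjusted p = 0.0334), against DPI (0.58, adjusted p = 0.0313) and in the interaction (0.90, adjusted p = 0.0179), and Cxcr4 for DNFB against H2O2 (0.71, adjusted p = 0.0239).

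Values that changed sign are given next. For DNFB against H2O2, Cxcl1 gave -0.22 as deposited, -0.028 with the target as a block and -0.10 in lower-target arrays, and -0.10 to 0.24 leaving out arrays. Cxcl10 gave -0.20 as deposited, -0.087 in lower-target arrays and -0.055 to 0.25 leaving out arrays, and Cxcl16 -0.032 as deposited. Cxcr4 with DNFB gave -0.013 as deposited. For DPI + DNFB against DNFB, Cxcl1 gave -0.054 with the covariate, and Cxcl2 gave -0.015 under median centring, -0.31 in lower-target arrays, -0.016 with array weights, -0.027 with the covariate and -0.15 to 0.16 leaving out arrays. Against DPI, Cxcl16 gave -0.023 under median centring and Cxcr4 0.043 with the covariate. Against non-treated cells, Cxcl1 gave -0.076 in lower-target arrays, -0.45 with the covariate and -0.16 to 0.25 leaving out arrays.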
